A study of Mus musculus with 2 samples.

Results

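The genes of the proteasome were described in mouse macrophages: the subunits of its catalytic core and regulatory caps, its activators, its inhibitor and the chaperones that assemble it. Members were chosen by symbol, as every gene named Psma, Psmb, Psmc, Psmd, Psme, Psmf or Psmg followed by a number, which gave 49 of the 55536 genes measured. The cells were bone marrow-derived macrophages of the C57BL/6J strain, primary phagocytes grown in culture from marrow precursors, and polyadenylated RNA of whole-cell extracts was sequenced. A first exposure to 100 ng/mL Lipid A lasted 12 h, a washout followed for 12 h, and a second exposure to 100 ng/mL lasted 30 min. Lipid A, the part of bacterial lipopolysaccharide sensed by Tlr4, is the agent in the free-text label, while the structured treatment label reads lipoprotein A. All libraries had this treatment: there was 1 group of 2 replicates, with no untreated library analysed here, so the values describe a state and not a response. The replicates are separate biosamples under the same donor record, and spread between them may therefore be technical. Sex, age and number of animals are not given in the labels. Gene counts came to 41938439 in replicate 1 and 30780685 in replicate 2. With 2 libraries and no second group no test was possible, and each statement below is a description.

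The proteasome degrades proteins that carry ubiquitin chains. Its barrel-shaped 20S core has outer rings of alpha subunits and inner rings of beta subunits, and the beta subunits Psmb5, Psmb6 and Psmb7 hold the active sites beta5, beta1 and beta2. Interferons induce Psmb8, Psmb9 and Psmb10, which take the places of those subunits in newly assembled cores, and the resulting immunoproteasome is known for cutting peptides suited to presentation on MHC class I. The 19S cap recognises ubiquitin and unfolds substrates with a ring of ATPases, whereas the PA28 and PA200 activators open the core without ubiquitin.

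Macrophage identity was checked against defining markers. All 8 macrophage markers (Lyz2, Adgre1, Csf1r, Cd68, Mertk, Fcgr1, Itgam and Cd14) reached a level of 1 TPM, a length-scaled share of all transcripts, in both libraries, with a summed level of 16477.3 TPM in replicate 1 and 18432.9 TPM in replicate 2. Of the neutrophil list 2 of 7 reached it, summing to 74.7 and 9.88 TPM, with Ly6g at 0. Of the T cell list 1 of 6 did, namely Cd4, with Cd3d, Cd3e and Cd3g at or below 0.09 TPM. The B cell and dendritic cell lists had 1 of 4 each, NK cells 0 of 3 and erythroid cells 0 of 4. All 5 stromal markers were detected, Col1a1 at 214.4 and 243.1 TPM and the list summing to 552.8 and 629.2 TPM. In bulk RNA, fewer cells of a type and less RNA per cell cannot be told apart, and the part of stromal cells in the levels below was not tested.

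Proteasome genes were expressed almost without exception, and most at high levels. Of the 49 members, 48 reached 1 TPM in both libraries, against 48.7% of the 22028 protein-coding genes. At least 10 TPM was met by 47 members (30.3% of protein-coding genes) and at least 100 TPM by 26 (5.56%). TPM is a level per transcript length, so it can be compared between genes, and it is taken from the alignment-derived table unless stated. Members had a median of 135.0 TPM in replicate 1 and 107.2 TPM in replicate 2, while detected protein-coding genes had a median of 17.5 and 16.4 TPM. In each library 44 of 49 members lay above that median of detected genes. Together the members took 0.82% of gene TPM in replicate 1 and 0.747% in replicate 2. The gene not detected was Psmb11, the beta5 subunit of the thymoproteasome of thymic cortical epithelium, which had 0 counts in both libraries. A count of 0 allows up to 0.0715 and 0.0975 CPM (counts scaled to library size) at these depths. The other tissue-restricted subunit, the testis alpha subunit Psma8, stood at 1.05 and 1.36 TPM from 42 and 36 counts.

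**Figure D1:**
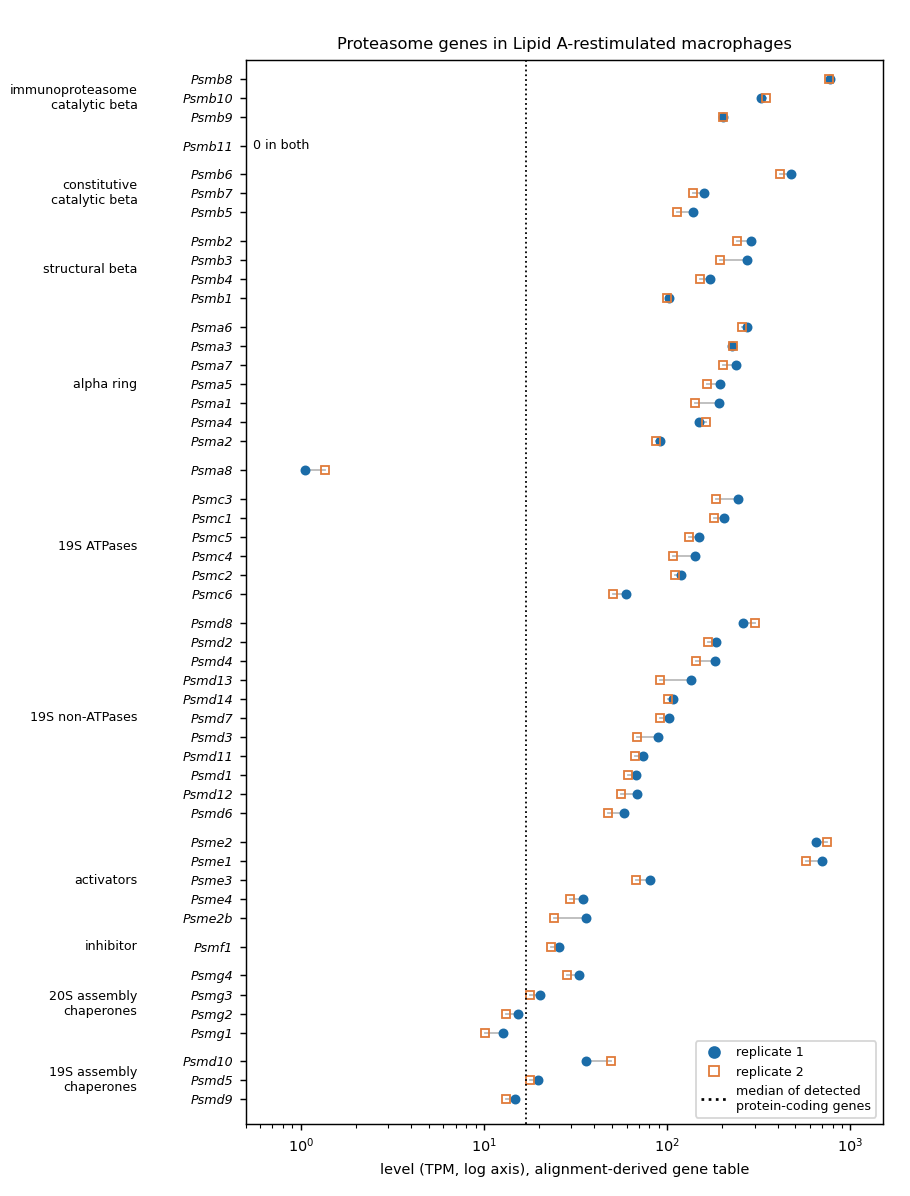
Level of each proteasome gene (x axis, TPM on a log scale) by class of subunit (y axis), with a filled circle for replicate 1, an open square for replicate 2 and a dotted line at the median of detected protein-coding genes. Psmb8, Psme1 and Psme2 stand furthest to the right, from 572.6 to 771.3 TPM, while the assembly chaperones lie near the dotted line and Psmb11 has 0 in both libraries.

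The 3 immunoproteasome subunits together exceeded the 3 constitutive subunits they replace, but not at every site. Psmb8, the beta5 immunosubunit (chromosome 17, 34197721 to 34201454, plus strand, mm10), had 771.3 TPM in replicate 1 and 766.4 TPM in replicate 2, from 14594 and 10798 counts. Its constitutive counterpart Psmb5 (chromosome 14, 54614119 to 54618022, minus strand) had 138.8 and 113.6 TPM, from 2440 and 1473 counts. Psmb8 was the highest of all 49 members and ranked 145 and 136 among protein-coding genes, and the libraries of both genes stood far apart, without overlap. The log2 ratio of Psmb8 over Psmb5 was 2.47 in replicate 1 and 2.75 in replicate 2, or 2.61 ± 0.197 (SD, n = 2), a 5.56-fold and 6.74-fold excess.

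At the beta2 site the order was the same and the gap smaller. Psmb10, the beta2 immunosubunit (chromosome 8, 105935735 to 105938444, minus strand), had 325.6 and 345.6 TPM. Psmb7, the constitutive subunit there (chromosome 2, 38588036 to 38644087, minus strand), had 158.5 and 138.7 TPM. The immunosubunit was higher in both libraries, with log2 ratios of 1.04 and 1.32 (1.18 ± 0.196, SD, n = 2).

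At the beta1 site the order was turned round. Psmb9, the beta1 immunosubunit (chromosome 17, 34181987 to 34187764, minus strand), had 202.6 and 200.7 TPM, the lowest of the 3 immunosubunits. Psmb6, the constitutive subunit (chromosome 11, 70525367 to 70527858, plus strand), had 474.6 and 413.3 TPM and was the highest constitutive core subunit. The log2 ratio of Psmb9 over Psmb6 was -1.23 in replicate 1 and -1.04 in replicate 2 (-1.13 ± 0.131, SD, n = 2), so the immunosubunit stood at 0.427 and 0.486 of its counterpart. No value of Psmb9 overlapped those of Psmb6.

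Summed over the sites, immunosubunits had 1299.6 TPM in replicate 1 and 1312.6 TPM in replicate 2, and constitutive subunits had 771.8 and 665.7 TPM. The log2 ratio of the sums was 0.75 and 0.98 (0.87 ± 0.161, SD, n = 2). Immunosubunit RNA was thus 62.7% and 66.4% of all catalytic subunit RNA, but the share depended on the site: 84.8% and 87.1% at beta5, 67.3% and 71.4% at beta2, and 29.9% and 32.7% at beta1. These are shares of RNA and not of assembled particles. The share was higher in replicate 2 at every site, with the immunosubunits nearly level between libraries and the constitutive subunits higher in replicate 1.

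Within each set the subunits were unequal although each core takes the same number of copies of them. Psmb8 was 3.81-fold and 3.82-fold higher than Psmb9, and 2.37-fold and 2.22-fold higher than Psmb10. Psmb6 was 3.42-fold and 3.64-fold higher than Psmb5, and 2.99-fold and 2.98-fold higher than Psmb7. Immunosubunit and constitutive RNA added together came to 910.1 and 880.0 TPM at beta5, 677.2 and 614.0 TPM at beta1, and 484.1 and 484.3 TPM at beta2. All of these sums lay above the median of the structural beta subunits, 221.2 and 173.5 TPM.

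**Figure D2:**
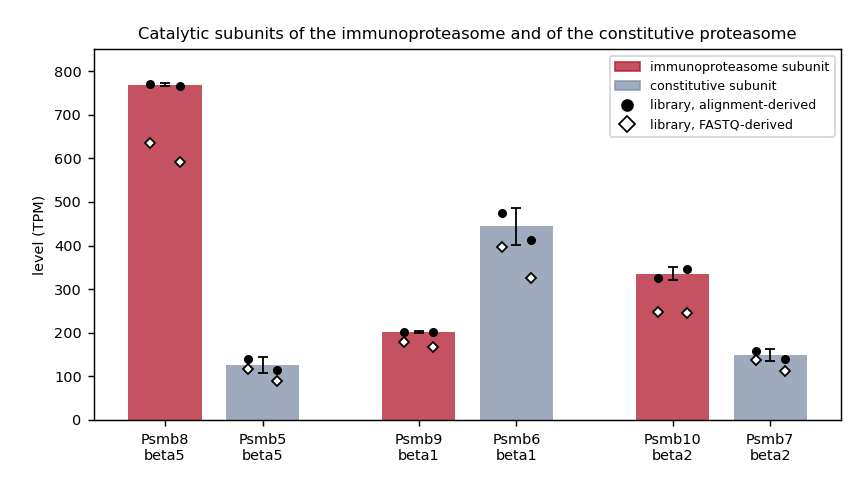
Levels of the immunoproteasome subunit and of its constitutive counterpart at each active site (y axis, TPM); bars are means and error bars SD over 2 libraries of the alignment-derived table, filled circles its libraries (replicate 1 left) and open diamonds the same libraries in the FASTQ-derived table. Psmb8 and Psmb10 stand above Psmb5 and Psmb7, while Psmb9 stands below Psmb6, in both tables.

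The second deposited quantification, made from the FASTQ files, gave the same order at each site. It had 635.6 and 590.6 TPM for Psmb8 against 117.2 and 89.2 TPM for Psmb5, and 247.2 and 245.0 TPM for Psmb10 against 136.4 and 112.0 TPM for Psmb7. For Psmb9 it had 179.2 and 167.9 TPM, against 397.6 and 325.3 TPM for Psmb6. One limit concerns shared sequence: 71.7% of the 31-base words of Psmb5 transcripts also occur in other genes, 59.8% in the processed pseudogene Gm3375, so reads could be split between them. Gm3375 held 7 and 4 counts, and named pseudogenes of Psmb5, Psmb6 and Psmb7 were at or below 0.09 TPM. Psmb7 overlaps Nek6 on the opposite strand, and 10.3% of its words occur in Nek6, which had 19.7 and 21.4 TPM. The limit reaches further: 14 of 49 members shared over 10% of their words with other genes. Sharing was not computed over all genes, so this count does not set the members apart. Among them were Psmb8 (13.7%), Psma5 (61.0%), Psme2 (33.5%), Psmc1 (32.2%) and Psmd2 (31.6%). For Psmb8 most of these words (13.0%) occur in the antisense gene Gm20496, which had 0 counts in both libraries.

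Psmb8 and Psmb9 lie in the MHC class II region of chromosome 17 beside Tap1 and Tap2, which encode the transporter that carries proteasome products into the endoplasmic reticulum. The annotated order is Psmb9, Tap1, Psmb8, Tap2. Tap1 had 331.7 and 302.7 TPM and Tap2 101.8 and 103.7 TPM, so the level was greater at each step through Psmb9, Tap1 and Psmb8 and lowest at Tap2. Psmb9 and Tap1 are transcribed away from each other and their annotated starts overlap by 212 bases (34187553 to 34187764). Of the Psmb9 words 4.79% are shared with Tap1, and a strand setting of the counting is among the points not given in the sources used here. By the annotation the end of Tap1 and the start of Psmb8 are 495 bases apart, on the same strand.

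**Figure D3:**
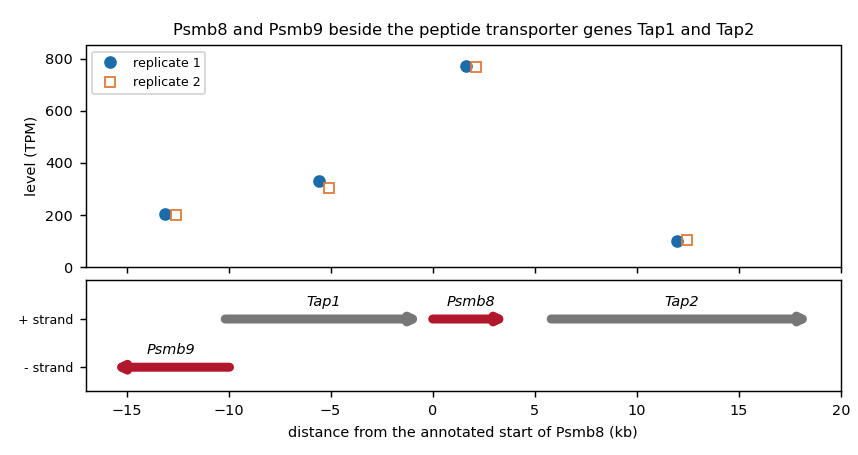
Levels (upper part, y axis in TPM; filled circles replicate 1, open squares replicate 2) and annotated extent and direction (lower part) of Psmb9, Tap1, Psmb8 and Tap2, by distance in kb from the annotated start of Psmb8. Psmb8, the shortest of the 4 genes, has the highest level, 771.3 and 766.4 TPM.

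Start regions of the catalytic genes are shown because different factors are known to act on the constitutive and the interferon-induced genes. Nfe2l1 acts on constitutive genes through antioxidant response elements, and Irf1 acts on interferon-induced genes. Whether these factors bear on the levels given above was not tested. Sequences are from RefSeq (GRCm38.p6, the mm10 build), 5′ to 3′ on the gene's strand, in lower case with the motif in capitals. The stretches of Psmb10, Psmb5 and Psmb6 reach only to the first annotated exon. RefSeq start windows, 250 bases before to 50 after each start, matched 41 of 49 members. Those of Psma8, Psmb1, Psmb2, Psmb7, Psmc3, Psmd3, Psmd7 and Psmg2 were not matched. For Psmb5 and Psmb6 the capitals mark the antioxidant-type motif TGACNNNGC, and the Psmb10 stretch holds none of the capital-marked motifs.
Psmb10, chr8:105938445-105938642, minus strand: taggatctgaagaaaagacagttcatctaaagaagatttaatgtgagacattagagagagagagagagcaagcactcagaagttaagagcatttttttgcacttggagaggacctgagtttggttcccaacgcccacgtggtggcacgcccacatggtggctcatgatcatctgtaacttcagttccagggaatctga
Psmb5, chr14:54618023-54618245, minus strand: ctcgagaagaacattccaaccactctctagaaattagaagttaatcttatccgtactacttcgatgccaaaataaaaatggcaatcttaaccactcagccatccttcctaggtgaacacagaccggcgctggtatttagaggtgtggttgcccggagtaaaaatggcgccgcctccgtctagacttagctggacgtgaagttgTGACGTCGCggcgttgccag
Psmb6, chr11:70525107-70525366, plus strand: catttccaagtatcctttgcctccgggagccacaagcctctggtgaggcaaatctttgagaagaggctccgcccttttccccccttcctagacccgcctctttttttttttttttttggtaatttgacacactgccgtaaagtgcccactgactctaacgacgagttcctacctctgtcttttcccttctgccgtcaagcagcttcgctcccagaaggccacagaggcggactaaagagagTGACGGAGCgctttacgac

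The motif begins 47 bases before the RefSeq start of Psmb5 and 9 bases before that of Psmb6. The windows of Psmb8, Psmb9 and Psme1 begin within annotated exons, so only short sites are shown, for Psmb8 and Psme1. The Psmb8 site has the interferon-gamma activation motif TTCNNNGAA in capitals, 97 bases before the RefSeq start. The site of Psme1, an interferon-inducible activator, carries the complement of the interferon response motif (GAAA, any 2 bases, GAAA) in capitals, 10 bases after the RefSeq start. Both motifs lie inside the annotated genes, and neither lies wholly outside annotated exons.
Psmb8, chr17:34198088-34198116, plus strand: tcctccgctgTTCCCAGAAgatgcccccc
Psme1, chr14:55578493-55578522, plus strand: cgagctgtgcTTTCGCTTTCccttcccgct

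Few members held the motifs marked above. TGACNNNGC, sought on both strands like all motifs here, was in the windows of 6 of 41 members (14.6%), namely Psmb5, Psmb6, Psmc6, Psmd9, Psmd12 and Psme4, and in 14.0% of all 27025 genes with a window. TTCNNNGAA, which reads alike on both strands, was in 3 (7.32%), Psmb8, Psmd2 and Psmg1, and in 9.55% of all genes. The interferon response motif was in 5 (12.2%), Psmb3, Psmd4, Psmd9, Psme1 and Psmg4, and in 3.99% of all genes. No immunosubunit window had it. However, the windows of Psmb8 and Psmb9 lie inside the annotated genes, so the bases before their annotated starts were not searched. The consensus of NF-kB was in 6 members (14.6%) and in 9.55% of all genes. CCAAT was in 14 members (34.1%) and 41.1% of all genes, and GGGCGG in 23 (56.1%) and 38.2% of all genes. Among the 90 member sites a single pair of different motifs overlapped, in Psmd9, by 4 bases. Member windows held a median of 19 CpG and 57.3% G and C, against 7 CpG and 52.7% over all windows, and those of the 3 immunosubunits a median of 11 CpG and 55.3%. A match to such letters is not evidence of binding.

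The remaining subunits of the core were expressed within a narrower range. The 7 alpha subunits, which form the gated outer rings, had a median of 194.1 TPM in replicate 1 and 164.8 TPM in replicate 2. Psma6 was highest, at 272.6 and 254.6 TPM, and Psma2 lowest, at 91.8 and 87.0 TPM. This is a 2.97-fold and 2.93-fold range, and an SD of log2 TPM over the 7 genes of 0.52 in each library, against 2.18 and 2.15 over all detected protein-coding genes. Psma7 had 238.3 and 200.3 TPM, Psma3 225.8 and 229.2 TPM, Psma5 194.1 and 164.8 TPM, Psma1 191.2 and 141.1 TPM, and Psma4 149.6 and 162.3 TPM. Both libraries of Psma6 lay above all other alpha subunits and both of Psma2 below, while Psma7 overlapped with Psma3, and Psma1 with both Psma5 and Psma4. The structural beta subunits, which have no active site, had similar levels. Psmb2 had 288.2 and 240.8 TPM, Psmb3 272.3 and 195.3 TPM, Psmb4 170.1 and 151.7 TPM, and Psmb1 102.6 and 99.5 TPM.

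The 19S cap had a lower median than the constitutive core, 118.8 and 100.6 TPM over 17 genes against 192.7 and 163.6 TPM over 14, with overlapping ranges. Its 6 ATPases, Psmc1 to Psmc6, which unfold substrates, had a median of 146.0 TPM in replicate 1 and 121.0 TPM in replicate 2. Psmc3 was highest, at 242.6 and 184.7 TPM, and Psmc6 lowest, at 59.6 and 50.3 TPM, although the ring holds them in equal numbers. Psmc1 had 204.8 and 181.0 TPM, Psmc5 149.9 and 131.1 TPM, Psmc4 142.0 and 107.2 TPM, and Psmc2 118.8 and 110.8 TPM. The 11 non-ATPase subunits had a median of 102.0 and 91.5 TPM. Psmd8, a lid subunit, led them with 260.3 and 299.5 TPM, and Psmd6, also of the lid, was lowest with 58.3 and 47.2 TPM. Psmd2, a scaffold of the base, had 184.8 and 166.5 TPM, and Psmd4, a ubiquitin receptor, had 181.8 and 142.9 TPM. Psmd14, the enzyme that removes ubiquitin chains from substrates, had 107.3 and 100.6 TPM. Psmd13, Psmd7, Psmd3, Psmd11, Psmd12 and Psmd1 lay between 55.6 TPM (Psmd12 in replicate 2) and 135.1 TPM (Psmd13 in replicate 1). Spread within the cap was wider than in the alpha ring, with an SD of log2 TPM of 0.71 and 0.75 over the 17 cap subunits.

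Activators divided into high and low members. Psme1 and Psme2 encode the alpha and beta chains of PA28, which is interferon-inducible and caps immunoproteasomes. Psme1 (chromosome 14, 55578123 to 55581529, plus strand) had 701.4 TPM in replicate 1 and 572.6 TPM in replicate 2, and Psme2 (chromosome 14, 55587441 to 55591113, minus strand) had 652.4 and 742.9 TPM. Which of these neighbouring genes was higher changed between the libraries, with Psme1 over Psme2 at 1.08-fold and 0.771-fold. Psme3, the nuclear PA28 gamma, had 80.9 and 67.7 TPM, and Psme4, PA200, had 34.8 and 29.6 TPM. Summed, Psme1 and Psme2 had 1353.8 and 1315.5 TPM, and Psme3 and Psme4 had 115.7 and 97.2 TPM. The log2 ratio was 3.55 and 3.76 (3.65 ± 0.148, SD, n = 2), and the groups did not overlap in either library. The mean of Psme1 and Psme2 was 3.49-fold and 3.99-fold the median alpha subunit. The inhibitor Psmf1, known as PI31, stood at 25.5 and 23.3 TPM.

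Psme2b, a copy of Psme2 on chromosome 11 (48945354 to 48946190, minus strand), had 36.2 and 24.2 TPM, and this level is uncertain. Of its 31-base words 78.4% occur in other genes, 76.5% in Psme2, and its whole length overlaps Gm12185 on the same strand. It also had the largest positive difference of any member between the quantifications, a log2 difference of 0.38 after centring on all protein-coding genes. No member was 2-fold apart between the quantifications, against 0.643% of protein-coding genes that reached 1 TPM in each table and 0.367% of those that reached 10 TPM.

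Dedicated assembly factors had low medians beside the subunits they assemble, with some overlap. Psmg1 to Psmg4, chaperones of the alpha ring, had a median of 17.7 TPM in replicate 1 and 15.4 TPM in replicate 2. Psmg4 had 33.0 and 28.2 TPM, Psmg3 20.1 and 17.8 TPM, Psmg2 15.4 and 13.1 TPM, and Psmg1 12.6 and 10.1 TPM. Psmd5, Psmd9 and Psmd10 are named as 19S subunits but act as chaperones of the ATPase ring; they had 19.8 and 17.9, 14.7 and 13.1, and 35.8 and 49.5 TPM in the 2 libraries. In replicate 2 Psmd10, at 49.5 TPM, was level with the ATPase Psmc6, at 50.3 TPM, and above the cap subunit Psmd6, at 47.2 TPM. The core maturation factor Pomp, which is not named Psm, was an exception among assembly factors, with 472.6 and 493.1 TPM.

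Matched genes of the wider pathway were all detected: 25 of the 26 listed were matched, Paaf1 not, and each of the 25 reached 1 TPM in both libraries. The ubiquitin precursor Ubb had 1724.0 TPM in replicate 1 and 1422.0 TPM in replicate 2. Cap-associated ubiquitin receptors and deubiquitinases were lower, Adrm1 at 71.9 and 62.8 TPM, Usp14 at 57.1 and 52.5 TPM and Uchl5 at 30.6 and 26.9 TPM. Of the transcription factors, Irf1 had 215.5 and 303.2 TPM, and Nfe2l1, which raises proteasome genes when degradation is impaired, had 135.8 and 157.9 TPM. Nlrc5, the transactivator of MHC class I, had 99.6 and 88.8 TPM. Downstream of the proteasome, the peptide-loading chaperone Tapbp had 882.8 and 866.1 TPM, the trimming peptidase Erap1 63.7 and 55.9 TPM, and B2m, the class I light chain, 14468.5 and 12997.2 TPM.

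Most proteasome RNA came from annotated protein-coding transcripts, but not for every member. Retained-intron and processed transcripts, as annotated, took a median of 0.649% of a detected member's TPM in replicate 1 and 1.17% in replicate 2, against 0.753% and 0.834% over all detected protein-coding genes. They took over 10% in 4 members (Psmb8, Psmb10, Psma3 and Psmd13) in replicate 1 and in 3 of these, without Psmd13, in replicate 2, against 19.7% and 21.2% of those genes. A single transcript carried over 90% of TPM in 35 and 33 members, and the leading transcript was the same in both libraries for 46 of 48. The shares of all detected genes that meet these rules are not given here, so the counts do not set the members apart.

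All 3 immunosubunits were mostly coding, at 77.7% to 86.9% of TPM, but less so than their constitutive counterparts. Psmb8-203, which is protein-coding, carried 75.6% and 75.8% of Psmb8 TPM, and the retained-intron transcript Psmb8-205 carried 21.8% and 20.6%. For Psmb9 the coding Psmb9-204 carried 74.2% and 79.4%, and Psmb9-207, annotated for nonsense-mediated decay, 13.1% and 9.58%. For Psmb10 the coding Psmb10-201 carried 82.3% and 79.9%, and the processed transcript Psmb10-203 13.9% and 15.5%. Coding transcripts made up 100.0% of Psmb5 in each library, 95.7% and 94.5% of Psmb6, and 99.9% and 99.8% of Psmb7. The FASTQ-derived table gave Psmb8-205 a like share, 23.4% and 23.2%, but moved the others: Psmb9-207 had 32.2% and 29.3% there, and Psmb10-203 had 1.28% and 2.73%. With coding transcripts alone the log2 ratio of immunosubunits over constitutive subunits was 0.47 in replicate 1 and 0.71 in replicate 2, and Psmb9 stayed below Psmb6, at -1.42 and -1.16.

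Psma3 and Psmd13 had the lowest coding shares of the 48 detected members in both libraries. Coding transcripts took 43.5% and 40.0% of Psma3 TPM and 44.4% and 53.2% of Psmd13 TPM. In Psmd13 the decay-annotated Psmd13-211 took 42.9% and 38.3%. In Psma3 the leading transcript was the coding Psma3-204, with 39.7% and 36.3%, in the alignment-derived table and the retained-intron Psma3-203, with 43.2% and 45.2%, in the FASTQ-derived table. Psma3 also differed most between the tables of all members, by a centred log2 difference of -0.58. Its processed pseudogene Gm13835, which shares 16.2% of the Psma3 words, had 6.01 and 6.17 TPM in the alignment-derived table and 78.2 and 82.5 TPM in the FASTQ-derived table.

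**Figure D4:**
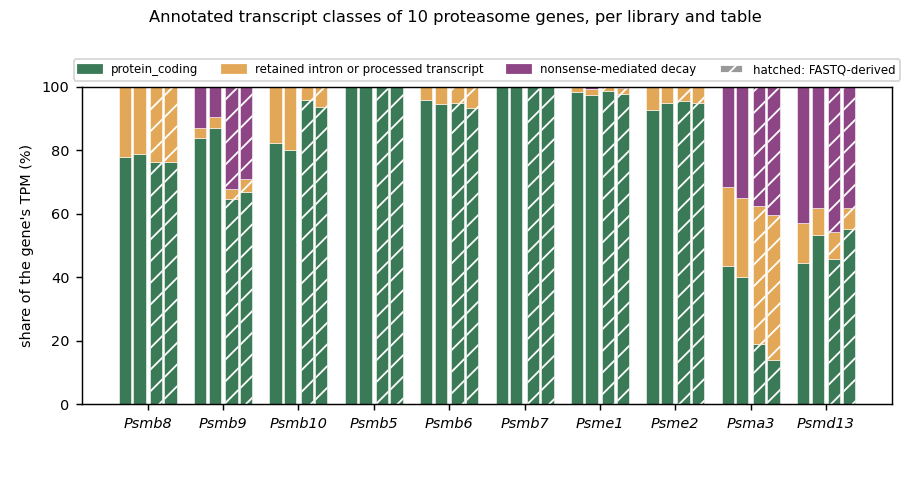
Share of each gene's TPM (y axis, percent) in coding transcripts, in retained-intron and processed transcripts, and in transcripts annotated for nonsense-mediated decay, for 10 proteasome genes; the plain bars are replicates 1 and 2 of the alignment-derived table and the hatched bars those of the FASTQ-derived table. Psmb5 and Psmb7 are almost wholly coding, Psmb8 keeps a noncoding share of 21.2 to 23.9% in all bars, and Psmb9, Psmb10 and Psma3 differ between the tables.

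Proteasome genes differed between the libraries about as much as other genes, and most were higher in replicate 1. Ratios are replicate 1 over replicate 2 on scaled counts, with exact 95% intervals that cover counting error only. None of the 48 members with at least 20 counts in each library was 2-fold apart, against 0.521% of all 12471 such genes that were 2-fold higher and 1.94% that were 2-fold lower in replicate 1. Higher in replicate 1 were 37 members and lower 11, against 53.6% of all genes higher. Among genes with a mean of at least 1000 counts, 31 of 41 members (75.6%) were higher, against 61.4% of all. The median absolute log2 ratio was 0.19 over members and 0.20 over all genes, and 0.18 and 0.16 among those with at least 1000 counts. The median log2 ratio was 0.16 over members, 0.02 over all genes and 0.07 over all genes with at least 1000 counts. Intervals lay wholly above 0 for 30 of the 48 members (31.2% of all genes), wholly below 0 for 6 (23.3%) and spanned 0 for 12. These shares are not matched for depth, and intervals narrow with counts. A mean of at least 1000 counts was met by 41 of the 48 members and by 5316 genes in all, beside the 12471 genes compared.

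Classes went different ways. Replicate 1 was higher for 16 of the 17 cap subunits (median log2 ratio 0.18), and the exception was Psmd8 at -0.24 (-0.28 to -0.19). Constitutive catalytic subunits were all higher, at 0.27 for Psmb5, 0.19 for Psmb6 and 0.16 for Psmb7, whereas immunosubunits were all slightly lower, at -0.02 for Psmb8, -0.07 for Psmb9 and -0.09 for Psmb10. In the FASTQ-derived table Psmb8 was at 0.02, so the direction of that gene was not fixed. The largest differences were 0.57 (0.36 to 0.78) for Psme2b and -0.51 (-0.63 to -0.39) for Psmd10, an ankyrin-repeat chaperone. Psme1 was higher in replicate 1, at 0.27 (0.23 to 0.31), and Psme2 lower, at -0.24 (-0.28 to -0.20). Among pathway genes 14 of 25 were higher, with a median of 0.06. The summed neutrophil markers were higher in replicate 1 as well, 74.7 TPM against 9.88 TPM, and the summed stromal markers lower, 552.8 TPM against 629.2 TPM, and their part in these ratios was not tested.

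**Figure D5:**
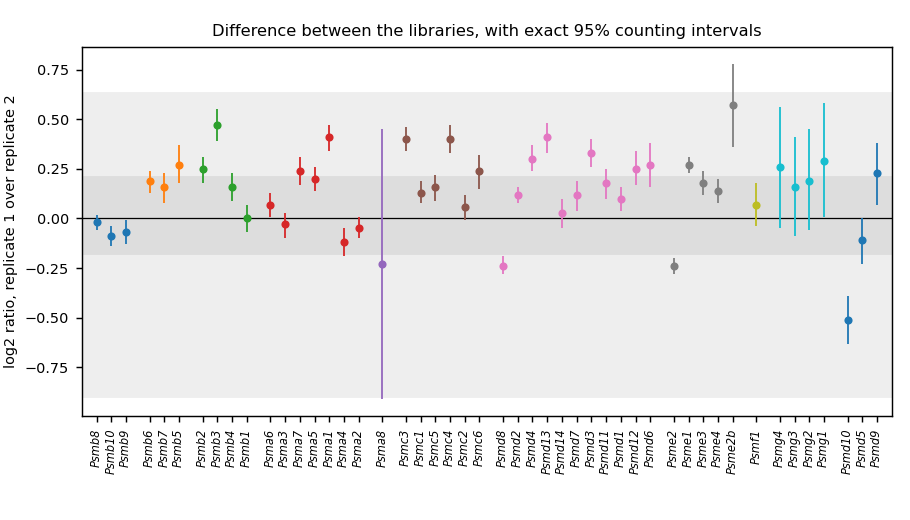
Log2 ratio of each proteasome gene between the libraries (y axis, replicate 1 over replicate 2, with exact 95% counting intervals), ordered by class and coloured by it; the dark band holds the middle 50% of all genes with at least 20 counts in both libraries, from -0.18 to 0.21, and the light band the middle 95%, from -0.90 to 0.63. All members lie inside the light band, the 3 immunosubunits just below 0 and 16 of 17 cap subunits above 0.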

How the data were processed

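Polyadenylated RNA was sequenced from 2 libraries, each from 1 µg of RNA, per the labels. The authors deposited 3 tables per library, quantified against mm10 with annotation M21 per the deposited notes: gene and transcript tables of expected counts and TPM made from a transcriptome alignment, and a transcript table of estimated counts with TPM, made directly from 4 FASTQ files, per the file headers. The aligner, quantifier and strand setting count among points not given in the sources used here. Left out were the 26345 numeric-name and spike entries.

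Expected counts were rounded. Ratios used TMM factors (edgeR 4.0.16, R 4.3.3) with 0.5 added and exact binomial intervals, and alternatives used total counts or size factors from DESeq2 1.42.0. The ratio step was tested on simulated data. A gene was detected at 1 TPM or more in both libraries. Shared sequence was counted as 31-base words of annotated transcripts found in another gene. Every member was described, with a pathway list and markers whatever their values; some pathway genes are counted but not reported here by name. Members and lists were chosen with earlier results of these data known. No test was made between libraries. Computation used scipy 1.17.1, pandas 2.3.3 and numpy 2.4.6 under Python 3.11.15, with plots by matplotlib 3.10.9.

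Precision follows from the 41938439 and 30780685 gene counts. A count of 0 allows up to 3 counts, and intervals and floors cover counting error only, since reads are not independent molecules.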

Additional observations from a re-analysis of the deposited data

How the results depend on the processing

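The ratios between subunits kept their direction under every alternative run. The second quantification lowered the median level of the members to 98.4 TPM, against 121.1 TPM, and 30 of 49 levels moved by more than the SD over libraries. Most of this shift was not particular to the members. Over 10581 protein-coding genes at 1 TPM in both tables the median log2 difference was -0.18. After centring on that value the median of the detected members was -0.05. The second quantification gave a log2 ratio of 3.40 for Psme1 and Psme2 over Psme3 and Psme4, against 3.65. Spread of log2 TPM within classes became 0.45 in the alpha ring, 0.66 in the ATPases, 0.94 in the immunosubunits, 2.08 in the activators and 0.54 in the 20S chaperones, against 0.52, 0.70, 0.97, 2.26 and 0.62. Counting protein-coding transcripts alone gave log2 ratios of 0.59 for immunosubunits over constitutive subunits, 2.26 for Psmb8 over Psmb5, -1.29 for Psmb9 over Psmb6 and 0.88 for Psmb10 over Psmb7, against 0.87, 2.61, -1.13 and 1.18. The same restriction in the FASTQ-derived table, added after the data were seen, gave 0.53, 2.19, -1.57 and 0.91. Adding Psme2b to Psme2, also added later, gave 3.69. Without either replicate the 5 ratios ranged from 0.75 to 0.98, 2.47 to 2.75, -1.23 to -1.04, 1.04 to 1.32, and 3.55 to 3.76. Detection was met by 47 members at 5 TPM and by 48 at 0.5 TPM. Scaling moved none of the 48 member ratios beyond its counting interval, and the second quantification moved 3 (Psma3, Psmb8 and Psme2b). Of these, Psma3 changed sign, at 0.06 against -0.03, and Psmb8, at 0.02 against -0.02, and their original intervals span 0. No paired analysis was possible because there is only 1 group. With 2 libraries, levels rest on the spread of a single pair, and genes of few counts, such as Psma8 and the Psmg chaperones, have wide intervals.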
